A study of Mus musculus with 9 samples.

Results

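The tripartite motif (Trim) genes are described here in BV-2 cells, an immortalized murine microglial cell line, after priming and restimulation with the endotoxin LPS. The members were all genes of the count table whose symbol is Trim followed by a number and, in some, 1 letter, with 1 such gene not analysed here, which gave 67 of 48526 genes. They were split into 15 members known as interferon-responsive in mouse or human and 52 other members. The interferon-responsive members were Trim14, Trim21, Trim26, Trim38 and Trim56 and the 10 genes Trim5, Trim6, Trim12a, Trim12c, Trim30a, Trim30b, Trim30c, Trim30d, Trim34a and Trim34b, which neighbour each other on chromosome 7.

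Most Trim proteins carry a RING domain, B-boxes and a coiled coil, though some, such as Trim14, lack the RING domain, and many of them attach ubiquitin to other proteins. The domain that follows, most often PRY-SPRY, differs between members and binds their targets. LPS is sensed by TLR4, and the branch of its signaling that runs through TRIF and IRF3 induces interferon beta. Interferon beta then acts back on the cell through its receptor and induces genes that carry the interferon-stimulated response element (ISRE) in their promoters. In microglia and macrophages several Trim genes are such targets, and their products take part in antiviral defence or adjust the signaling that induced them.

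The study compared 3 groups of 3 libraries each, all of BV-2 cells that received LPS at 100 ng/mL as the last stimulus. HP cells were primed with a high dose of LPS beforehand, ULP cells with an ultra-low dose, and UP cells were not primed. The descriptions of the samples give 100 ng/mL for HP and 1 fg/mL for ULP, as the study's methods do, but the separate dose field of the labels gives 1 fg/mL for HP and 100 ng/mL for ULP. The groups follow titles and descriptions, and if the dose field were right, the names HP and ULP would be exchanged throughout, while the comparison of all primed cells with UP would stand. No unstimulated cells were analysed here, so that the effect of LPS itself is not measured. Whether replicates are separate cultures is not stated, and p-values therefore cover the spread of these 9 libraries only, technical or biological.

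The libraries held 24189203 to 27802244 counts, and Trim members took 0.10% to 0.125% of them. HP 6 and ULP 4 stood apart from the other libraries of their groups, and by differences in counts UP 5 did so too. Between replicates, the chi-square per gene against counting noise was 13.4 for UP 4 with UP 6. For UP 5 it was 71.6 with UP 4 and 86.3 with UP 6. For HP 6 it was 83.7 with HP 4 and 132 with HP 5, and for ULP 4 82.1 and 103 with ULP 5 and ULP 6. On the first principal component, which carried 79.1% of the variance, HP 4, HP 5 and HP 6 lay at 57.5, 75.5 and -20.4, ULP 4, ULP 5 and ULP 6 at -39.2, 44 and 52.2, and the UP libraries at -46.4, -50.3 and -73. The nuclear RNA Malat1 was likewise highest in HP 4, HP 5, ULP 5 and ULP 6, with 44.2, 92.7 and 4.98 scaled RPKM in HP, 4.97, 34.01 and 29.1 in ULP and 3.21, 3.05 and 2.27 in UP. Markers of microglia and macrophages summed to 1685 to 2741 scaled RPKM, although Cx3cr1 was at or near 0 in all libraries, and summed markers of astrocytes, neurons, oligodendrocytes and fibroblasts did not exceed 1.498, 0.0413, 0.404 and 0.0131. In bulk RNA, fewer cells that transcribe a gene and less RNA of it per cell cannot be told apart.

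The promoters of the interferon-responsive members are shown first, since the ISRE is a sequence through which interferon acts on many of its target genes. Promoters of 300 bases, 250 before and 50 after the start, were taken from RefSeq on GRCm38.p6 and searched on both strands for the core of the ISRE, taken as GAAA, any 2 bases and GAAA again, which on the other strand reads TTTC, any 2 bases and TTTC. It was present for 3.99% of 27025 genes, for 8 of the 14 interferon-responsive members with an entry (57.1%), and for 1 of the 38 other members with an entry (2.63%). The first of the following lines are the matches in members whose values are given below, with the match in capitals, and the last is Trim2, the match among the other members.
Trim21 (chr7:102565444-102565479, minus strand): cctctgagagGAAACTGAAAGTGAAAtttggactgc
Trim26 (chr17:36836976-36837011, plus strand): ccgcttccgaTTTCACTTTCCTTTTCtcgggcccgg
Trim12a (chr7:104315466-104315495, minus strand): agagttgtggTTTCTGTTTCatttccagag
Trim12c (chr7:104353359-104353388, minus strand): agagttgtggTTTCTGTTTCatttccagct
Trim5 (chr7:104288136-104288165, minus strand): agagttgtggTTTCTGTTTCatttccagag
Trim30a (chr7:104465210-104465239, minus strand): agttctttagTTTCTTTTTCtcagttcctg
Trim34a (chr7:104244457-104244486, plus strand): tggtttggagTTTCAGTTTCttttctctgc
Trim2 (chr3:84212791-84212820, minus strand): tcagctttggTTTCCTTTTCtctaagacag
In Trim21 and Trim26, 2 matches overlap in the run of 16 capitals. The windows of Trim12a and Trim5 are the same letters throughout, and Trim30d, the other member with a match, has the window printed for Trim30a. Another match of Trim30a, at a start inside the gene and with other letters around it, is not printed. The window of Trim2 also lies inside the gene, away from its outermost start. Trim56 had an entry without a match, and Trim14 had no entry. A match is a description of these letters and not a measured binding site.

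The whole promoter of Trim21, the interferon-responsive member with the smallest unadjusted p in HP against UP and in HP against ULP, is given for context (chr7:102565433-102565732, minus strand, GRCm38.p6), with the matches in capitals near its 3′ end.
Trim21: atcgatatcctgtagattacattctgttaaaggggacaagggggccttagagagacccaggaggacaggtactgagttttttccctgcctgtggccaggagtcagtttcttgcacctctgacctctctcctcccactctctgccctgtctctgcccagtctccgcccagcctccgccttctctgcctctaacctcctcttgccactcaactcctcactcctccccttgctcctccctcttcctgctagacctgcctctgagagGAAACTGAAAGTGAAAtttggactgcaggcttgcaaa

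Levels are given as scaled RPKM, which are reads per kilobase of gene and megaread of the library, with library sizes adjusted by TMM. Of the 67 members, 37 had enough counts to be tested and 30 did not. The tested members had at least 86 counts over all 9 libraries and the others at most 57. No count in any library was found for 9 members (Trim6, Trim30c, Trim42, Trim52, Trim55, Trim58, Trim60, Trim61 and Trim80), and a count of 0 allows up to 3 counts in a library. Of the interferon-responsive members, 7 were tested (Trim5, Trim12a, Trim12c, Trim14, Trim21, Trim26 and Trim56) and 8 were not.

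Trim28, the co-repressor KAP1 that silences endogenous retroviruses together with zinc finger proteins, was the most abundant member, with 60.5, 58.6 and 84.6 scaled RPKM in HP, 79.8, 60.2 and 53.0 in ULP and 84.3, 76.3 and 93.3 in UP. Trim35 followed with a mean of 27.3 ± 4.0 in HP, 35.2 ± 5.8 in ULP and 36.2 ± 8.5 in UP (SD, n = 3 each). Trim27 had 22.3 ± 3.5, 22.5 ± 2.7 and 28.1 ± 2.1 scaled RPKM in HP, ULP and UP (SD, n = 3 each). The order of these 3 was the same in all 3 groups, though the Trim35 and Trim27 libraries overlapped in HP and in UP. In all, 7 members reached a mean of 10 scaled RPKM in every group, and 21 reached 1. The most abundant interferon-responsive member was Trim26, which lay near 10, and the others stayed below 4 in every library.

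**Figure D1:**
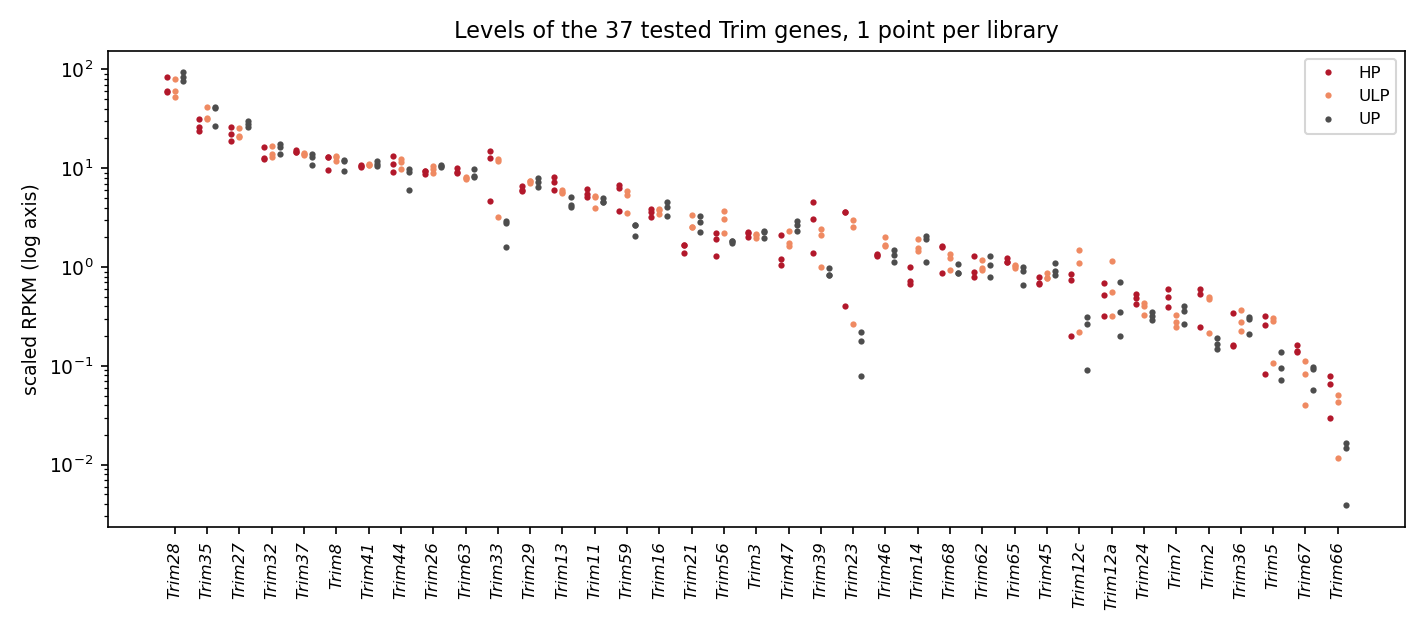
Scaled RPKM of the 37 tested Trim genes on a log axis, ordered by their mean over all libraries, with 1 point per library (red, HP, orange, ULP, grey, UP; n = 3 each). Trim28 is highest at 53.0 to 93.3, and Trim23 spans 0.0786 to 3.62.

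Among the interferon-responsive members, Trim21 and Trim14 were lowest in the HP libraries, without overlap with ULP or UP, and Trim56 was highest in ULP. None of these differences passed the adjusted test of edgeR, which called 0 of 37 members in any of the 4 comparisons. Of all 14702 genes it called 0.524% for HP against UP, 0.170% for HP against ULP and 0% for ULP or for all primed cells against UP. Trim21, the cytosolic receptor for antibodies, had 1.69, 1.66 and 1.39 scaled RPKM in HP, 2.55, 2.52 and 3.33 in ULP and 2.83, 3.25 and 2.28 in UP. All HP libraries thus lay below all ULP and UP libraries, while ULP and UP overlapped. The log2 fold change of Trim21 was -0.82 (SE 0.19, adjusted p = 0.0606) for HP against UP, 0.01 (SE 0.19, adjusted p = 0.977) for ULP against UP and -0.83 (SE 0.19, adjusted p = 0.233) for HP against ULP. DESeq2 called Trim21 lower in HP than in UP (adjusted p = 0.00468) and lower in HP than in ULP (adjusted p = 0.0339), the call in HP against ULP being its only one among the members, where it called 0.714% of all genes.

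Trim14, known in human cells as an adaptor of the mitochondrial antiviral protein MAVS, had 0.718, 0.669 and 1.01 scaled RPKM in HP, 1.90, 1.46 and 1.56 in ULP and 1.91, 1.11 and 2.07 in UP. HP lay below both other groups here too, with HP 6 close to UP 5. The log2 fold change was -1.09 (SE 0.26, adjusted p = 0.0606) for HP against UP, -0.05 (SE 0.26, adjusted p = 0.898) for ULP against UP and -1.04 (SE 0.26, adjusted p = 0.372) for HP against ULP. DESeq2 gave adjusted p = 0.00403 for HP against UP and 0.0564 for HP against ULP. Of the 51-base windows of Trim14 transcripts, 25.2% also occur in transcripts of other genes, mostly of its neighbour Nans, so that its counts could hold reads of them.

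Trim56, which in human cells supports signaling by STING and TLR3, had 1.94, 2.20 and 1.29 scaled RPKM in HP, 2.20, 3.08 and 3.67 in ULP and 1.85, 1.84 and 1.74 in UP. Every ULP library lay above every UP and HP library, by very little for ULP 4 over HP 5. The log2 fold change was 0.72 (SE 0.23, adjusted p = 0.169) for ULP against UP, -0.72 (SE 0.23, adjusted p = 0.730) for HP against ULP and -0.0012 (SE 0.23, adjusted p = 0.998) for HP against UP, the last with a 95% confidence interval from -0.52 to 0.52. Without ULP 4, edgeR called Trim56 higher in ULP than in UP, at 0.90 and adjusted p = 0.0352, in a fit that called 19.6% of all genes. With an offset for gene length, the log2 fold change was 0.37 (adjusted p = 0.217) for ULP against UP and -0.39 (adjusted p = 0.143) for HP against UP.

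Trim26, which in mouse and human cells acts on IRF3, had 8.70, 9.34 and 9.40 scaled RPKM in HP, 10.5, 9.01 and 9.90 in ULP and 10.9, 10.3 and 10.6 in UP. HP lay below UP in all libraries, at a log2 fold change of -0.21 (SE 0.11, adjusted p = 0.156), and ULP overlapped both. With an offset for gene length, the log2 fold change was -0.45 (adjusted p = 0.0655) for HP against UP and -0.33 (adjusted p = 0.187) for ULP against UP. Without the offset, the 95% confidence interval for ULP against UP ran from -0.35 to 0.13.

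The tested members of the chromosome 7 cluster, rodent relatives of the primate retroviral restriction factor TRIM5, had low counts and varied widely within groups. Trim12c had 0.743, 0.841 and 0.202 scaled RPKM in HP, 0.222, 1.09 and 1.48 in ULP and 0.263, 0.315 and 0.0906 in UP. HP 6 and ULP 4 lay within the range of the UP libraries, and the other primed libraries lay above it. The log2 fold change of Trim12c was 1.43 (SE 0.75, adjusted p = 0.176) for HP against UP and 2.07 (SE 0.75, adjusted p = 0.169) for ULP against UP, where DESeq2 made a call (adjusted p = 0.0478). Trim5 had 0.261, 0.322 and 0.0819 scaled RPKM in HP, 0.107, 0.287 and 0.302 in ULP and 0.0959, 0.137 and 0.0714 in UP, with the same libraries high, and its log2 fold changes were 1.135 (adjusted p = 0.157) and 1.196 (adjusted p = 0.197) for HP and ULP against UP. Trim12a had 0.519, 0.695 and 0.320 in HP, 0.321, 0.561 and 1.16 in ULP and 0.347, 0.713 and 0.202 in UP, and all 3 groups overlapped. Trim12c and Trim5 share sequence, since 37.4% of the windows of Trim12c and 38.0% of those of Trim5 occur in transcripts of other genes, most often each other, so that the split of reads between them is uncertain.

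The members of the list that were not tested held few counts. Trim30a, which in mouse restrains TLR signaling, had 2, 3 and 1 counts in HP, 9, 7 and 24 in ULP and 4, 5 and 2 in UP. ULP was above both other groups in all libraries, but the total of 57 counts did not pass the filter, and no fold change is given. Trim38 had 18 counts in all, Trim34a 16, Trim30d 8, Trim30b 5 and Trim34b 4. Of the windows of Trim34a and Trim34b, 54.4% and 49.1% occur in transcripts of other genes.

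**Figure D2:**
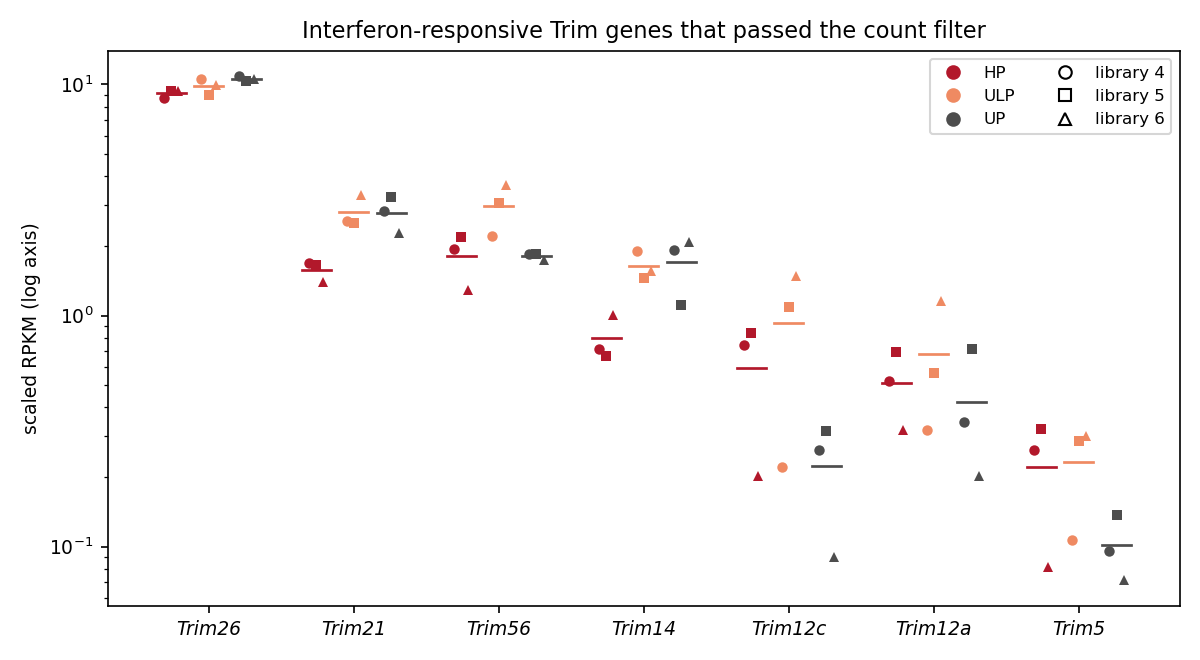
Scaled RPKM of the 7 tested interferon-responsive Trim genes on a log axis, with 1 point per library (circle, library 4, square, library 5, triangle, library 6) and the group mean as a bar, for HP, ULP and UP from left to right (n = 3 each). The HP points of Trim21 (1.39 to 1.69) and Trim14 (0.669 to 1.01) lie below the other groups, and those of Trim12c and Trim5 are split, with HP 6 and ULP 4 near UP.

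Over the 7 tested interferon-responsive members, the median log2 fold change was -0.0012 for HP against UP, 0.70 for ULP against UP, -0.64 for HP against ULP and 0.36 for all primed cells against UP. Over the 30 other tested members the medians were 0.16, 0.06, 0.09 and 0.14 in the same order, and over all 14702 genes 0.0075, -0.0084, 0.022 and -0.0049. Each median of the 7 is the value of 1 member. This was Trim12a (SE 0.55) for ULP against UP, Trim12c (SE 0.69) for HP against ULP, and Trim56 for the others. Without ULP 6, the median of the 7 was 0.077 for ULP against UP and -0.14 for HP against ULP. All 7 interferon-responsive members had a negative log2 fold change for HP against ULP, from -1.04 to -0.06, beside 13 of the 30 others. Over all genes, 55.3% had a positive one. The signs of Trim5 and Trim12a turned on single libraries, with 0.32 for Trim5 without HP 6 and 0.21 for Trim12a without ULP 6. The list was not uniform against UP. The 3 cluster members had medians of 1.135 for HP and 1.196 for ULP, and the 4 members elsewhere in the genome had medians of -0.52 and -0.02. The comparisons share libraries, HP against UP and ULP against UP the UP libraries and both with HP against ULP the primed ones, so that their values are not independent of each other.

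Other interferon-stimulated genes give the setting for these members. Of 20 such genes, listed without Trim genes and with earlier results of these data known, 18 were tested. The list is therefore a description and no independent support. Of the 18, edgeR called 12 lower in HP than in UP, where 0.435% of all genes were called lower. It called 12 lower in HP than in ULP, where the share was 0.150%. None of the 18 was called in ULP against UP. Their median log2 fold change was -1.93 for HP against UP, -0.04 for ULP against UP and -2.12 for HP against ULP. By library, the median difference of the list from the UP mean, in log2, was -1.90, -1.84 and -2.07 in HP, 0.04, -0.39 and 0.34 in ULP and 0.03, 0.28 and -0.35 in UP. In HP 6 the list was thus as low as in HP 4 and HP 5. For Trim21 the same difference was -0.70, -0.73 and -0.97 in HP, and for Trim14 it was -1.17, -1.27 and -0.69, so that both lay below the UP mean in all HP libraries by less than the list median. For Trim56 it was 0.10, 0.28 and -0.48 in HP. The count of 12 for HP against UP ranged from 0 without HP 4 to 17 without ULP 4, and was 4 without HP 5 and 5 without UP 4 or without UP 5. The count of 12 for HP against ULP was 0 without any 1 of the HP libraries, 8 without ULP 4, 3 without ULP 6 or without UP 4, and 12 or 11 without any of the others. Interferon beta itself (Ifnb1) did not pass the filter on low counts, with 0.0989, 0.0466 and 0.101 scaled RPKM in HP, 0.369, 0.438 and 0.425 in ULP and 0.629, 0.112 and 0.201 in UP. Its HP libraries lay below all ULP libraries and below UP 4 and UP 6. With so few reads, the HP libraries cannot be told apart from UP 5. Of the 4 tested genes for its receptor and kinases, edgeR called 0 in each comparison.

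Among the other members described one by one, Trim23, Trim33, Trim39 and Trim2 had the largest positive differences from UP. Trim23, which carries an ARF GTPase domain, had 3.60, 3.62 and 0.407 scaled RPKM in HP, 0.268, 2.57 and 3.03 in ULP and 0.178, 0.220 and 0.0786 in UP. Its primed libraries did not overlap with UP, but HP 6 and ULP 4 lay far closer to UP than to the libraries of their own groups. The log2 fold change of Trim23 was 4.01 (SE 1.03, adjusted p = 0.0606) for HP against UP and 3.63 (SE 1.02, adjusted p = 0.169) for ULP against UP. Windows shared with its neighbour Ppwd1 made up 9.92% of Trim23.

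Trim33, a chromatin reader also known as TIF1-gamma that acts on Smad signaling, had 12.7, 14.9 and 4.64 scaled RPKM in HP, 3.22, 11.9 and 12.5 in ULP and 2.96, 2.80 and 1.60 in UP. The same 4 libraries, HP 4, HP 5, ULP 5 and ULP 6, were highest, and primed and UP libraries did not overlap. Its log2 fold change was 2.13 (SE 0.56, adjusted p = 0.0606) for HP against UP and 1.91 (SE 0.56, adjusted p = 0.169) for ULP against UP. Trim39, a ligase of the PRY-SPRY class, had 3.03, 4.60 and 1.40 in HP, 1.01, 2.09 and 2.42 in ULP and 0.969, 0.839 and 0.829 in UP, with log2 fold changes of 1.78 (SE 0.43, adjusted p = 0.0606) and 1.07 (SE 0.43, adjusted p = 0.175). Trim2, an NHL repeat protein best known from neurons, had 0.535, 0.595 and 0.245 in HP, 0.216, 0.475 and 0.502 in ULP and 0.165, 0.190 and 0.147 in UP, with log2 fold changes of 1.46 (SE 0.39, adjusted p = 0.0606) and 1.25 (SE 0.39, adjusted p = 0.169). With an offset for gene length, these values of Trim2 were 0.65 (adjusted p = 0.132) and 0.50 (adjusted p = 0.274). DESeq2 called all 4 genes higher in HP than in UP, with adjusted p = 0.00289 for Trim23, 0.00118 for Trim33, 0.00119 for Trim39 and 0.00465 for Trim2. It called 3 of them higher in ULP than in UP, with adjusted p = 0.0204 for Trim23, 0.0145 for Trim33 and 0.0347 for Trim2, against 0.0922 for Trim39. Of all genes, DESeq2 called 17% higher in HP than in UP and 7.04% higher in ULP than in UP. The 4 genes are named here for the size of these same differences, so that the calls are no separate support. In these 4 genes HP 4, HP 5, ULP 5 and ULP 6 were the highest libraries, as they were on the first principal component and for Malat1. The part that the source of this component has in their values was not tested.

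Members with lower values in primed cells differed less. Trim47, a PRY-SPRY ligase, had 1.22, 1.06 and 2.11 scaled RPKM in HP, 2.34, 1.73 and 1.64 in ULP and 2.34, 2.68 and 2.92 in UP. HP lay below UP, ULP 4 reached the level of UP 4, and the log2 fold change was -0.85 (SE 0.27, adjusted p = 0.0650) for HP against UP and -0.47 (SE 0.27, adjusted p = 0.25) for ULP against UP. DESeq2 called Trim47 lower in HP than in UP (adjusted p = 0.0283). Trim28 had log2 fold changes of -0.32 (adjusted p = 0.230) and -0.40 (adjusted p = 0.203), and HP 6 and ULP 4 were within the UP range of 76.3 to 93.3. Trim27 had log2 fold changes of -0.33 (adjusted p = 0.121) and -0.32 (adjusted p = 0.190). Trim35 had -0.41 (adjusted p = 0.152) and -0.04 (adjusted p = 0.906), and its UP libraries alone ranged from 26.5 to 41.8. Of the windows of Trim28, 42.9% occur in transcripts of its neighbour Chmp2a, and the strand setting of the counting was not stated.

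**Figure D3:**
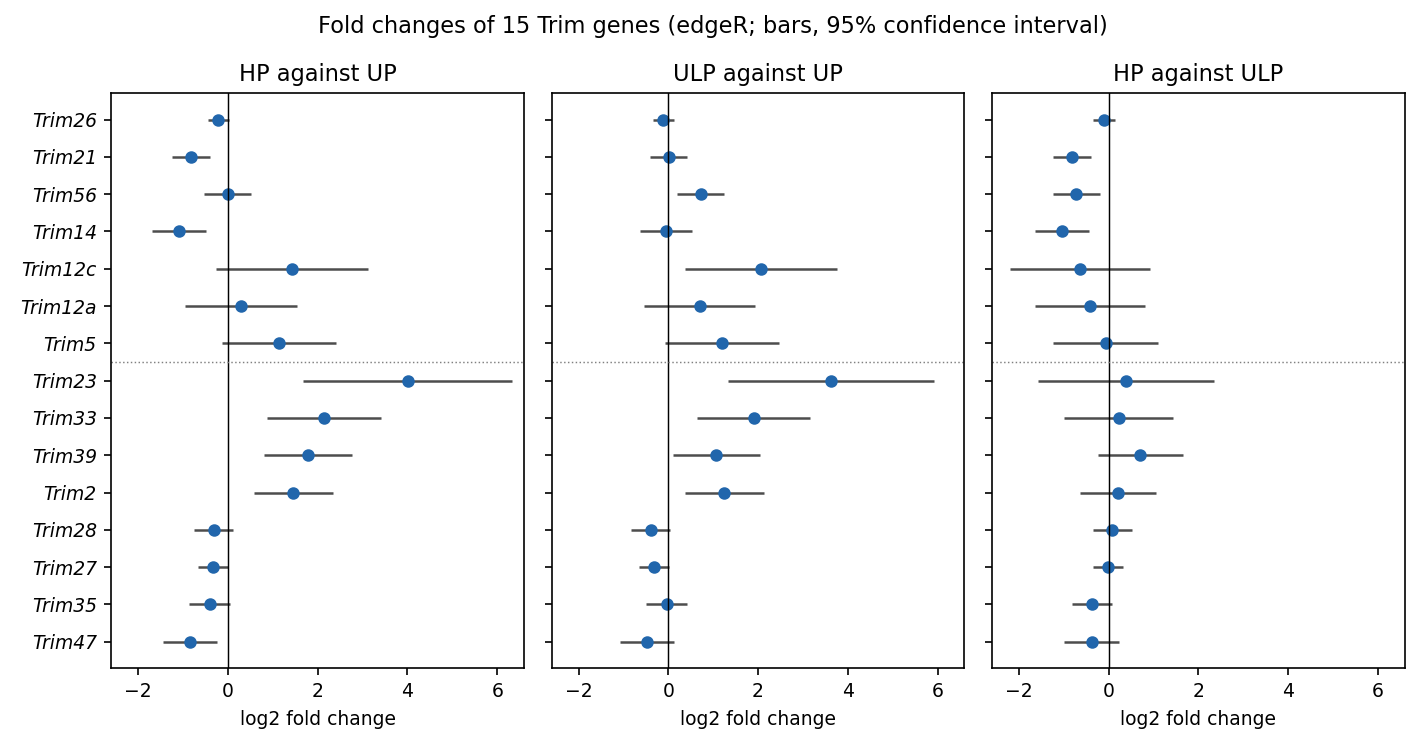
Log2 fold change (points) with its 95% confidence interval (bars) from edgeR for 15 Trim genes in HP against UP, ULP against UP and HP against ULP, with the 7 interferon-responsive members above the dotted line. For HP against UP the intervals of Trim21, Trim14, Trim47 and Trim27 lie below 0 and those of Trim23, Trim33, Trim39 and Trim2 above it, while no member passed the adjusted test.

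By domain class, the 4 members with a PHD finger and bromodomain, of which all were tested, had a median log2 fold change of 1.36 for HP against UP and 0.92 for ULP against UP. For HP against UP the 4 values ranged from -0.32 to 2.275, the highest in a member with 86 counts over all 9 libraries. For ULP against UP they ranged from -0.40 to 1.91. The 2 transmembrane members, Trim13 and Trim59, had medians of 0.93 and 0.69. The 17 tested members of the PRY-SPRY class had medians of -0.06 and -0.02, the 4 tested of the COS box class 0.06 and 0.0019, and the 3 tested of the NHL class -0.0021 and -0.07. The 3 tested with an ARF, MATH or filamin domain had 0.23 and 0.13, and the 4 tested without a further domain 0.04 and 0.31. No class was tested as a set. Of 4 further genes of the family under other symbols (Pml, Mid1, Mid2 and Mefv), Pml, Mid1 and Mefv were tested, and edgeR called none of them in any comparison. DESeq2 called Pml, which builds the nuclear bodies named after it, lower in HP than in UP (adjusted p = 0.00224, against 0.0606 with edgeR, at a log2 fold change of -0.94 with SE 0.22), lower in HP than in ULP (adjusted p = 0.0498, against 0.381 with edgeR, at -0.84 with SE 0.22) and lower in all primed cells than in UP (adjusted p = 0.044, against 0.0696 with edgeR, at -0.52 with SE 0.18).

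**Figure D4:**
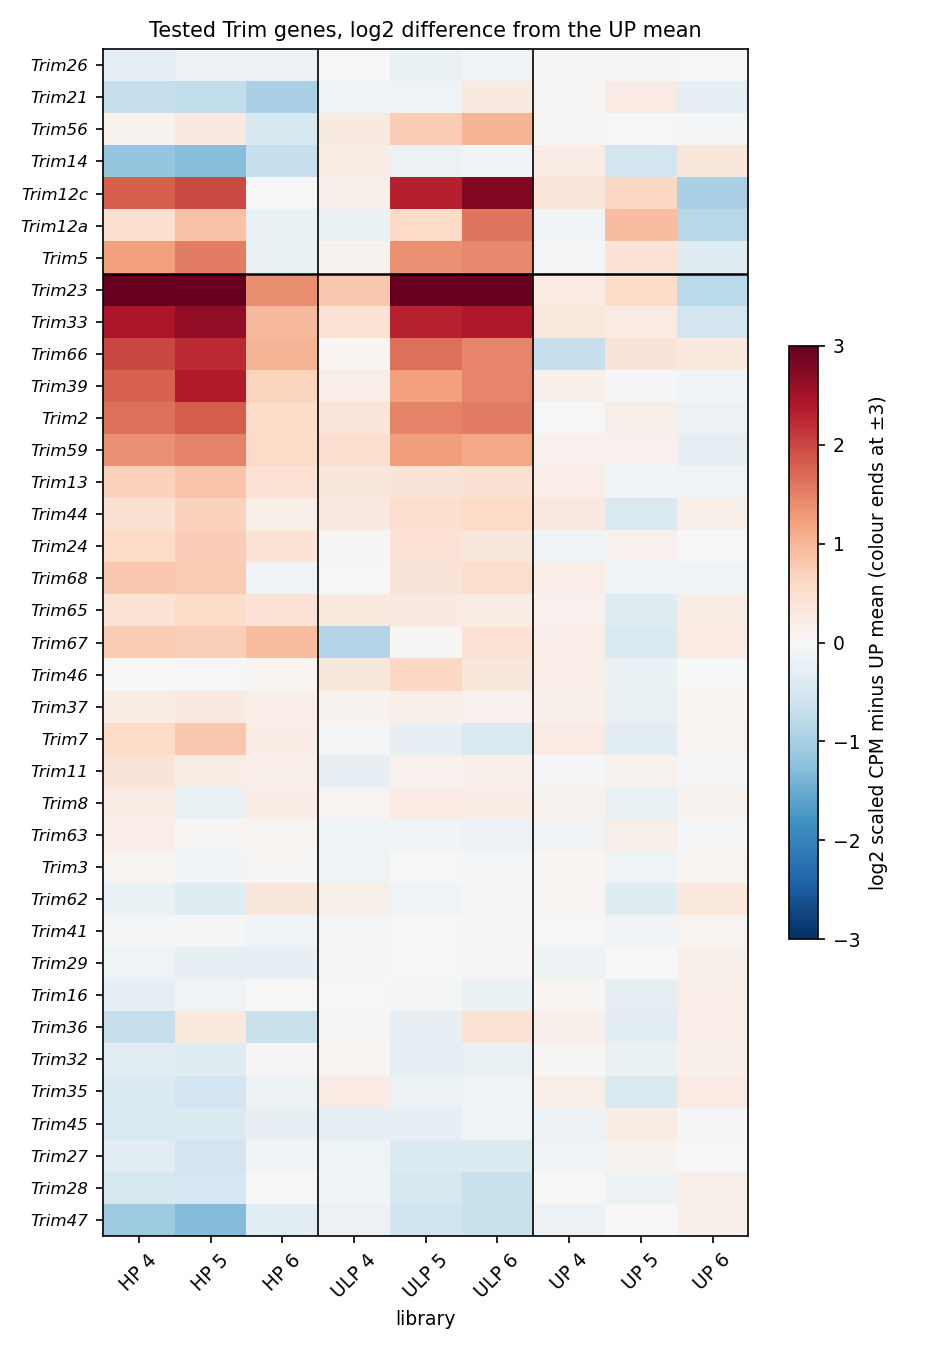
Log2 difference of each of the 37 tested Trim genes (rows) from its UP mean in each library (columns, HP, ULP and UP from left to right), with red above and blue below the UP mean and the colour ending at 3. The 7 interferon-responsive members are above the black line, and the others are ordered by their mean difference in the primed libraries, from Trim23 (4.50 in HP 4, 0.82 in ULP 4) to Trim47 (-1.09 in HP 4, -0.17 in ULP 4).

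The counts of members were read against all genes. For HP against UP, edgeR called 0.524% of all genes and 0 of 37 members, although 16 members (11 higher and 5 lower) had an unadjusted p under 0.05, as did 40.9% of all genes. DESeq2 called 10 members, 7 higher and 3 lower, and 24.8% of all genes, and limma called 0 members and 0.313% of all genes. Of the 37 members, 12 were higher and 6 lower in HP than in UP without overlap of the libraries, and over all genes these shares were 21.9% and 20.9%. For ULP against UP, edgeR called 0 members and 0% of all genes, and 9 members, all higher, had an unadjusted p under 0.05, beside 27.1% of all genes. DESeq2 called 5 members and 7.13% of all genes, and limma called 0 members and 0% of genes. Here 9 members were higher and 2 lower without overlap, beside 14.8% and 13.5% of all genes.

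For HP against ULP, edgeR called 0 members and 0.170% of all genes, and 6 members (2 higher and 4 lower) had an unadjusted p under 0.05, beside 3.94% of all genes. DESeq2 called 1 member, Trim21, and 0.714% of all genes, and limma called 0 members and 0.170% of genes. Without overlap of the libraries, 5 members were higher and 5 lower in HP than in ULP, beside 4.48% and 5.16% of all genes, and 3 of the 5 lower members were Trim21, Trim14 and Trim56. For all primed cells against UP, edgeR called 0 members and 0% of all genes, 15 members had an unadjusted p under 0.05 beside 42.9% of genes, DESeq2 called 9 members beside 27.5%, and limma called 0 beside 0%.

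The counts against UP turned on HP 6 and ULP 4. For HP against UP, edgeR called 15 members without HP 6, where it called 38.1% of all genes, 11 without ULP 4 (26.3%), and 18 without both (48.3%). For ULP against UP it called 7 members without ULP 4 (19.6%) and 14 without both (38.3%). Trim23, Trim33, Trim39 and Trim2 were among the called members in each of these fits. Trim21 and Trim14 were called lower in HP than in UP in each of the 3 fits of that comparison, at -0.72 to -0.82 and at -1.09 to -1.28. For ULP against UP neither was called in the 2 fits without ULP 4. HP 6 and ULP 4 were picked for their place in these same data, so that these fits are no separate support for single members.

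**Figure D5:**
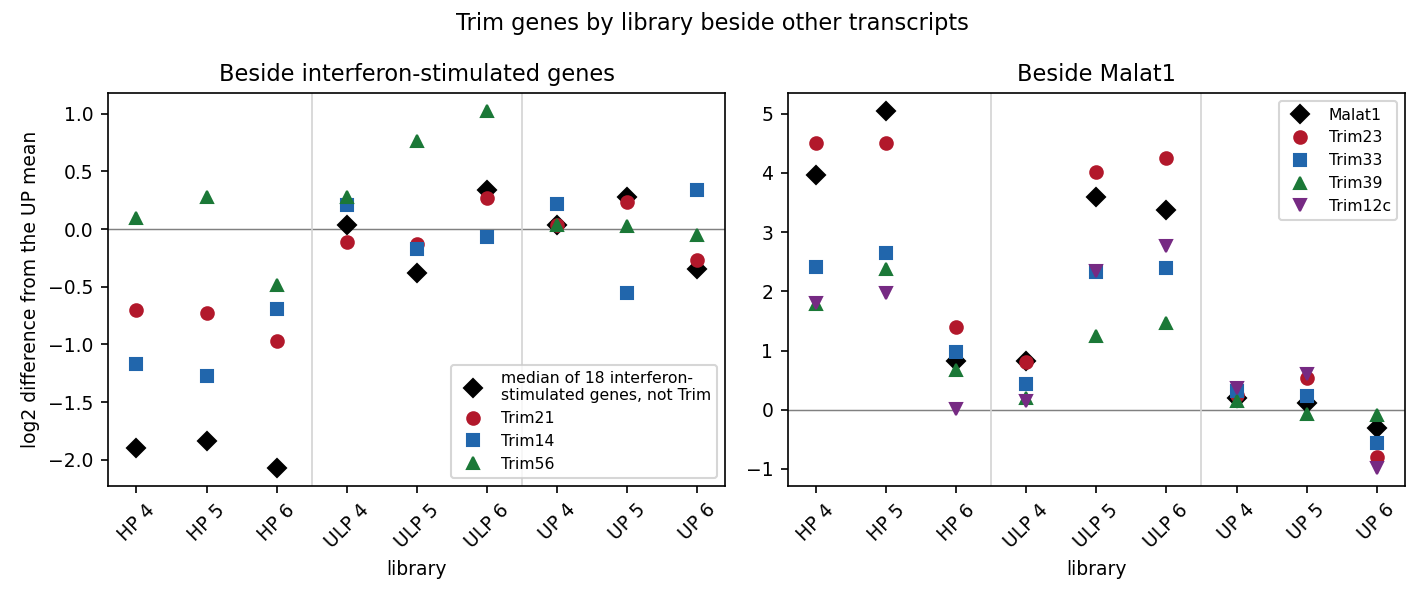
Log2 difference from the UP mean by library (HP, ULP and UP from left to right) for Trim21, Trim14 and Trim56 beside the median of 18 other interferon-stimulated genes (left), and for Trim23, Trim33, Trim39 and Trim12c beside Malat1 (right, Malat1 from scaled RPKM, all others from scaled CPM). On the left the list median lies at -1.84 to -2.07 in all 3 HP libraries, and on the right HP 6 and ULP 4 lie near the UP libraries.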

How the data were processed

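Poly(A) RNA of 9 BV-2 libraries was sequenced with a stranded kit. Per the submitters' processing notes, the authors used bcl2fastq 1.8.4, mapped reads with TopHat2 2.1.0 and counted them per gene with featureCounts 1.5.0. The deposited counts are raw whole-number values per gene, from which the authors calculated the deposited RPKM values. The notes name the build GRCm38, the supplement names another, and neither states whether strand was used in counting. A separate table of RPM values was not used.

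Genes were filtered with filterByExpr, which left 14702 of 48526, scaled by TMM and tested with edgeR 4.0.16 (quasi-likelihood test, all 9 libraries, group as the only term, Benjamini-Hochberg adjustment over all tested genes, calls at an adjusted p under 0.05), in R 4.3.3. Libraries were assigned by title. DESeq2 1.42.0, limma 3.58.1 on log2(RPKM + 0.1) and log2(RPKM + 1), other scaling and filtering, a gene length offset, a replicate block and leaving out libraries were alternatives. Scripts were tested on simulated data. Scaled RPKM used gene lengths derived from the deposited RPKM. Differences from the UP mean were taken on log2 scaled CPM with a prior count of 2. Shared windows came from GENCODE vM39 transcripts, and gene and promoter positions from RefSeq on GRCm38.p6.

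Members and lists were chosen with earlier results of these data known. Fold changes are given by name for tested interferon-responsive members, for called members and, in each comparison with UP, for the 3 highest and the 3 lowest other members with a mean of at least 5 CPM. Members other than these are named with levels only.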

Additional observations from a re-analysis of the deposited data

How the results depend on the processing

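No member was called by edgeR with all 9 libraries, and this count moved with the tool and the libraries. For HP against UP it was 10 with DESeq2, 9 without the filter on low counts, 6 with only the groups compared, 18 without ULP 4 and HP 6, and 0 to 15 over leaving out each library. For ULP against UP it was 5 with DESeq2, 14 without ULP 4 and HP 6, and 0 to 7 over leaving out each library. For HP against ULP it was 1 with DESeq2. For all primed cells against UP it was 9 with DESeq2, 5 without the filter, 17 without ULP 4 and HP 6, and 0 to 15 over leaving out each library. Over all genes, HP against UP gave 77 calls with edgeR, 3650 with DESeq2, 2018 without the filter and 1494 with only the groups compared. It gave 114 with the gene length offset, 46 with limma and a pseudocount of 0.1, and 38 with a pseudocount of 1. Without ULP 4 and HP 6 it gave 7096, and without HP 6 5596. ULP against UP gave 1048 with DESeq2, 5627 without ULP 4 and HP 6, and 2881 without ULP 4. HP against ULP gave 105 with DESeq2. All primed cells against UP gave 4045 with DESeq2, 2070 without the filter, 7709 without ULP 4 and HP 6, and 5667 without HP 6. Each of these fits held 14702 genes, except 23593 without the filter. Of the 18 interferon-stimulated genes outside the family, the 12 called lower in HP than in UP and the 12 lower in HP than in ULP became 17 and 17 with DESeq2, 15 and 0 with only the groups compared, and 9 and 6 with limma and a pseudocount of 1. The cause of these differences was not tested.

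The median log2 fold change of interferon-responsive members moved with the gene length offset to -0.39 (HP against UP), 0.37 (ULP against UP) and -0.0068 (all primed cells against UP), and with the length offset and replicate block together to -0.38 (HP against UP) and 0.00034 (all primed cells). With limma and a pseudocount of 1 it was 0.17 for ULP against UP and -0.24 for HP against ULP. Leaving out each library gave 0.077 (without ULP 6) to 0.90 (without ULP 4) for ULP against UP and -0.89 (without ULP 4) to -0.14 (without ULP 6) for HP against ULP. The median of other members was 0.29 for HP against UP with limma and a pseudocount of 0.1, a setting that moved the median of all genes to 0.13, and 0.18 for ULP against UP without ULP 4 and HP 6.

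Of 1125 values for single members under the alternatives, 979 kept direction and side of the threshold, 106 passed it anew and 40 changed sign. As edgeR called no member with all 9 libraries, no value could lose a call. Trim56 for HP against UP was 0.014 with only the groups compared, 0.083 and 0.063 with limma and the pseudocounts 0.1 and 1, 0.21 without ULP 4 and HP 6, and -0.16 to 0.21 over leaving out each library, and -0.0068 for all primed cells with the length offset. Trim21 for ULP against UP was -0.0072 without the filter, -0.022 with the length offset, -0.0092 with offset and block, and -0.13 to 0.14 over leaving out each library. With limma and the pseudocounts 0.1 and 1, ULP against UP gave 0.067 and 0.032 for Trim14 and 0.063 and 0.061 for Trim35, and HP against ULP gave 0.020 and 0.019 for Trim27. Leaving out each library gave, for ULP against UP, -0.28 to 0.11 for Trim14 and -0.22 to 0.076 for Trim35, and for HP against UP -0.046 to 0.90 for Trim12a. For HP against ULP it gave -0.74 to 0.21 for Trim12a, -0.090 to 0.50 for Trim2, -0.14 to 0.87 for Trim23, -0.13 to 0.094 for Trim27, -0.11 to 0.26 for Trim28, -0.18 to 0.57 for Trim33 and -0.45 to 0.32 for Trim5.

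Libraries of different groups share numbers, but the deviations of same-numbered libraries correlated from -0.838 to 0.683, so that the numbers were not taken to pair them, and not every library correlated best with its own number. With the replicate block, 0 members were called in each of the 4 comparisons, as without it, the 12 interferon-stimulated genes called in HP against UP and in HP against ULP became 0, and over all genes 0 in place of 77 for HP against UP and 0 in place of 25 for HP against ULP. Depth limits the members that did not pass the filter, such as Trim30a.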
